A study of Mus musculus with 25 samples.

Results

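The proteasome genes of the distal colon were taken as the annotated mouse genes whose symbol starts with Psma, Psmb, Psmc, Psmd, Psme, Psmf or Psmg. The prefixes matched 54 genes, of which 50 were protein-coding and 4 were pseudogenes. The 48 protein-coding genes with a mean of at least 1 FPKM (a level of fragments scaled to transcript length and library size) over the 25 libraries were kept, out of 49452 gene identifiers in the table. The 2 left out were Psma8, a testis subunit, with a mean of 0.0533 FPKM, and Psmb11, the thymic catalytic subunit, with 0.0185 FPKM. All 48 passed the filter on low values. They were split into 5 immunoproteasome genes (Psmb8, Psmb9, Psmb10, Psme1 and Psme2) and 43 others. On GRCm38 the 5 are Psmb8 (ENSMUSG00000024338, chr17:34197721-34201454, plus strand), Psmb9 (ENSMUSG00000096727, chr17:34181987-34187764, minus strand), Psmb10 (ENSMUSG00000031897, chr8:105935735-105938444, minus strand), Psme1 (ENSMUSG00000022216, chr14:55578123-55581529, plus strand) and Psme2 (ENSMUSG00000079197, chr14:55587441-55591113, minus strand). Psmb8 and Psmb9 thus lie close together in the MHC region, and Psme1 and Psme2 lie close together on another chromosome.

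The proteasome degrades ubiquitin-tagged proteins inside a barrel, the 20S core, built from stacked rings of alpha and beta subunits. In the constitutive core the cutting is done by the beta subunits Psmb5 (chymotrypsin-like activity), Psmb6 (caspase-like activity) and Psmb7 (trypsin-like activity). Interferon-γ and related signals raise 3 replacement subunits, Psmb8 (also called LMP7), Psmb9 (LMP2) and Psmb10 (MECL-1), which take the places of Psmb5, Psmb6 and Psmb7 in newly assembled particles. The same signals raise Psme1 and Psme2, the PA28 alpha and beta subunits of a cap that opens the core. The immunoproteasome so formed is known for making peptides that fit MHC class I molecules. The 19S cap, with its ring of ATPases (Psmc genes) and its other subunits (Psmd genes), recognises and unfolds tagged proteins, and dedicated chaperones (the Psmg genes, Psmd5, Psmd9 and Psmd10) assemble the particle.

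RNA was measured by poly(A)-selected RNA sequencing in colons of C57BL/6 mice that were 6 weeks old, with 5 mice in each of 5 genotypes. Nemofl/fl mice carry loxP-flanked alleles of the gene for NEMO (Ikbkg), a scaffold that IκB kinases need to activate NF-κB, and served as the controls. In NEMOIEC-KO mice NEMO is deleted in the intestinal epithelial cells. The 3 double mutants carry that epithelial deletion together with a label for a cytokine allele: Il12b-/- (the p40 chain, found in both IL-12 and IL-23), Il12a-/- (the p35 chain of IL-12 alone) or Il23a-/- (the p19 chain of IL-23 alone). The Cre driver, the sex of the mice and the design of the cytokine alleles are not given in the sources used here, and no cytokine mutant without the epithelial deletion was analysed here. The comparisons ask what epithelial NEMO loss does to proteasome RNA, and whether the change differs when each cytokine subunit is also mutated.

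The checks of the targeted genes came first. Ikbkg was at 8.27 to 11.0 FPKM in Nemofl/fl and between 2.93 and 5.85 FPKM in the 20 libraries of the other genotypes. Il12b RNA went against its label, with 0.994 ± 0.223 FPKM (SD, n = 5) in the libraries labelled Il12b-/- and 0.171 ± 0.0799 FPKM in NEMOIEC-KO. Il12a RNA did so too, at 1.20 ± 0.586 FPKM in the libraries labelled Il12a-/- and 0.421 ± 0.313 FPKM in NEMOIEC-KO. Il23a gave no check of its label: it was at 0.196, 0.262, 0.229, 0.150 and 0.232 FPKM in the libraries labelled Il23a-/- and at 0.120, 0.422, 0.805, 0.127 and 0.0827 FPKM in NEMOIEC-KO. The means, 0.214 ± 0.0427 and 0.311 ± 0.308 FPKM, were in the order of the labels only through NEMOIEC-KO replicate 3, without which that group's mean was 0.188 FPKM (n = 4). Whole-gene FPKM cannot show a partial deletion, so the double mutants are named below by their labels only, and every direction drawn from them is that of the libraries so labelled. Library codes in the sample descriptions were unevenly spread over the genotypes: the 5 controls shared 1 code with NEMOIEC-KO replicates 3 to 5, and another code held NEMOIEC-KO replicates 1 and 2 with 14 of the 15 double-mutant libraries. In proteasome RNA 4 libraries stood apart. NEMOIEC-KO Il12a-/- replicate 1 was the highest of its genotype for all 5 immunoproteasome genes, and NEMOIEC-KO Il12b-/- replicate 2 was the highest of its genotype for 41 of the 43 others. NEMOIEC-KO replicate 3 was the highest of its group for all 5 and for 37 of 43, and NEMOIEC-KO replicate 1 the lowest for all 5 and for 40 of 43. Beside the counts that moved most without a single mouse, the value without that mouse is given.

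Short stretches near the starts of 3 catalytic genes are shown, the ones with a motif match among the 3 pairs of inducible and constitutive subunits. Promoter windows from RefSeq (mouse build GRCm38.p6, 250 bases before to 50 after the gene's start) were found for 41 of the 48 genes, and 4 motifs were searched on both strands. Psmb9 and Psmb10 had no match to any of the 4, and no window was found for Psmb7. The lines give 30 bases around a motif match, all before the RefSeq start, 5′ to 3′ on the gene's strand, with the match in capitals. They lie at chr17:34198088-34198117, plus strand for Psmb8, chr14:54618023-54618052, minus strand for Psmb5, and chr11:70525327-70525356, plus strand for Psmb6. RefSeq starts differ from the ends of the GENCODE genes given above: that of Psmb8 is at base 34198195, inside the longer GENCODE gene, so the Psmb8 stretch is before the RefSeq start but within the GENCODE gene.
Psmb8: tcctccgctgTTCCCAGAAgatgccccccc
Psmb5: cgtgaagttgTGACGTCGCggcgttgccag
Psmb6: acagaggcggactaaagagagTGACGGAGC
The capitals in Psmb8 are a match to the gamma-activated site TTCNNNGAA, an element known from interferon-γ responsive genes, and its first base lies 97 bases before the RefSeq start. That motif was in 8.3% of all 32851 windows and in 3 genes of the family (Psmb8, Psmd2 and Psmg1). The capitals in Psmb5 and Psmb6 are matches to the antioxidant response element core TGACNNNGC, which was in 12.4% of windows and in 6 genes of the family. The core of the interferon-stimulated response element, a GAAA repeat with 2 free bases between, was in 3.44% of windows and in 5 genes of the family. They were Psme1, Psmb3, Psmd4, Psmd9 and Psmg4, of which only Psme1 is an immunoproteasome gene. The consensus NF-κB site was in 0.411% of windows and in none of the 41. A match is a description of letters and not a binding site.

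In control colon Psmb5 and Psmb6 were far more abundant at the RNA level than their inducible replacements, and Psmb7 was less abundant than its own. All levels in this paragraph are mean FPKM in Nemofl/fl, which can be compared between genes because FPKM is per length. Among the catalytic genes, Psmb6 stood at 155 ± 12.5 FPKM (SD, n = 5), Psmb5 at 93.7 ± 10.4 and Psmb7 at 74.1 ± 4.06. Their replacements differed among themselves: Psmb9 stood at 13.2 ± 1.68, Psmb8 at 25.8 ± 2.05 and Psmb10 at 109.9 ± 8.95, so Psmb10 alone exceeded its counterpart in controls. The PA28 subunits were already abundant, with Psme1 at 103 and Psme2 at 149.8. The structural beta genes Psmb1, Psmb2, Psmb3 and Psmb4 had means of 147, 94.5, 138 and 147. In the alpha ring the means ran from 64.0 for Psma5 to 138 for Psma7, with Psma1, Psma2, Psma3, Psma4 and Psma6 between them. The ATPases ran from 39.0 for Psmc2 and 40.6 for Psmc6, through Psmc1, Psmc4 and Psmc5, to 89.6 for Psmc3. The non-ATPase cap genes ranged from 24.2 for Psmd1 to 102 for Psmd8, with Psmd4, a ubiquitin receptor, at 92.2 and Psmd14, the cap's deubiquitinase, at 32.4. Psmd2, Psmd3, Psmd6, Psmd7, Psmd11, Psmd12 and Psmd13 fell within that range. Assembly chaperones were all low, from 15.4 for Psmg1 to 23.4 for Psmd5, with Psmg2, Psmg3, Psmg4, Psmd9 and Psmd10 between. The remaining activators and the inhibitor were Psme3 (PA28 gamma, nuclear) at 30.7, Psme4 (PA200) at 14.5 and Psmf1 (PI31) at 17.3. The 2 remaining genes matched the prefix without being subunits of the lists above, Psmc3ip, a meiotic recombination cofactor, at 15.6 and Psme2b, a near copy of Psme2, at 5.18.

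Loss of epithelial NEMO was accompanied by higher RNA of all 5 immunoproteasome genes, by 2.44-fold to 10.6-fold on the log2(FPKM + 0.5) scale, and by far smaller rises of part of the other subunits. In the Nemofl/fl mice, Psmb8 was at 25.0, 25.1, 27.2, 23.3 and 28.5 FPKM. In the NEMOIEC-KO mice it was at 144, 241, 296, 177 and 190.4 FPKM. Every NEMOIEC-KO value lay above every control value, and the control values were close together. The log2 fold change was 2.96 (SE 0.27, limma adjusted p = 1.4e-07). Psmb9 changed most, from 13.8, 13.7, 14.1, 10.3 and 14.3 FPKM in Nemofl/fl to 102, 171, 201, 122 and 142 FPKM in NEMOIEC-KO. The groups were again fully apart, and Nemofl/fl replicate 4 was the lowest control. Its log2 fold change was 3.40 (SE 0.24, limma adjusted p = 3.5e-09). The exons of Psmb9 overlap those of Tap1, which rose by 3.34, on the opposite strand. Whether strand was used in counting is not given, so part of the Psmb9 change is uncertain. Psmb10 was at 96.4, 109, 110.1, 121 and 113 FPKM in the controls and at 307, 444, 551, 338 and 409 FPKM in NEMOIEC-KO, also without overlap. Starting from a higher level, it changed less, by 1.87 (SE 0.17, limma adjusted p = 1.6e-07).

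The cap genes of the immunoproteasome moved together. Psme1 was at 103, 111, 106, 93.4 and 100.5 FPKM in Nemofl/fl and 197, 296, 351, 235 and 268 FPKM in NEMOIEC-KO, a log2 fold change of 1.36 (SE 0.16, limma adjusted p = 4.6e-06). Psme2 was at 140.1, 157, 154, 141 and 156 FPKM in Nemofl/fl and 289.8, 410.1, 438, 333 and 379 FPKM in NEMOIEC-KO, a log2 fold change of 1.29 (SE 0.13, limma adjusted p = 4.9e-07). Neither gene overlapped between the groups, and NEMOIEC-KO replicate 3 was the highest and replicate 1 the lowest for both. The ratio of Psme1 to Psme2, whose products are built into the same ring, stayed near 0.687 in Nemofl/fl and 0.723 in NEMOIEC-KO, and was 0.585 to 0.855 over the 25 libraries.

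**Figure D1:**
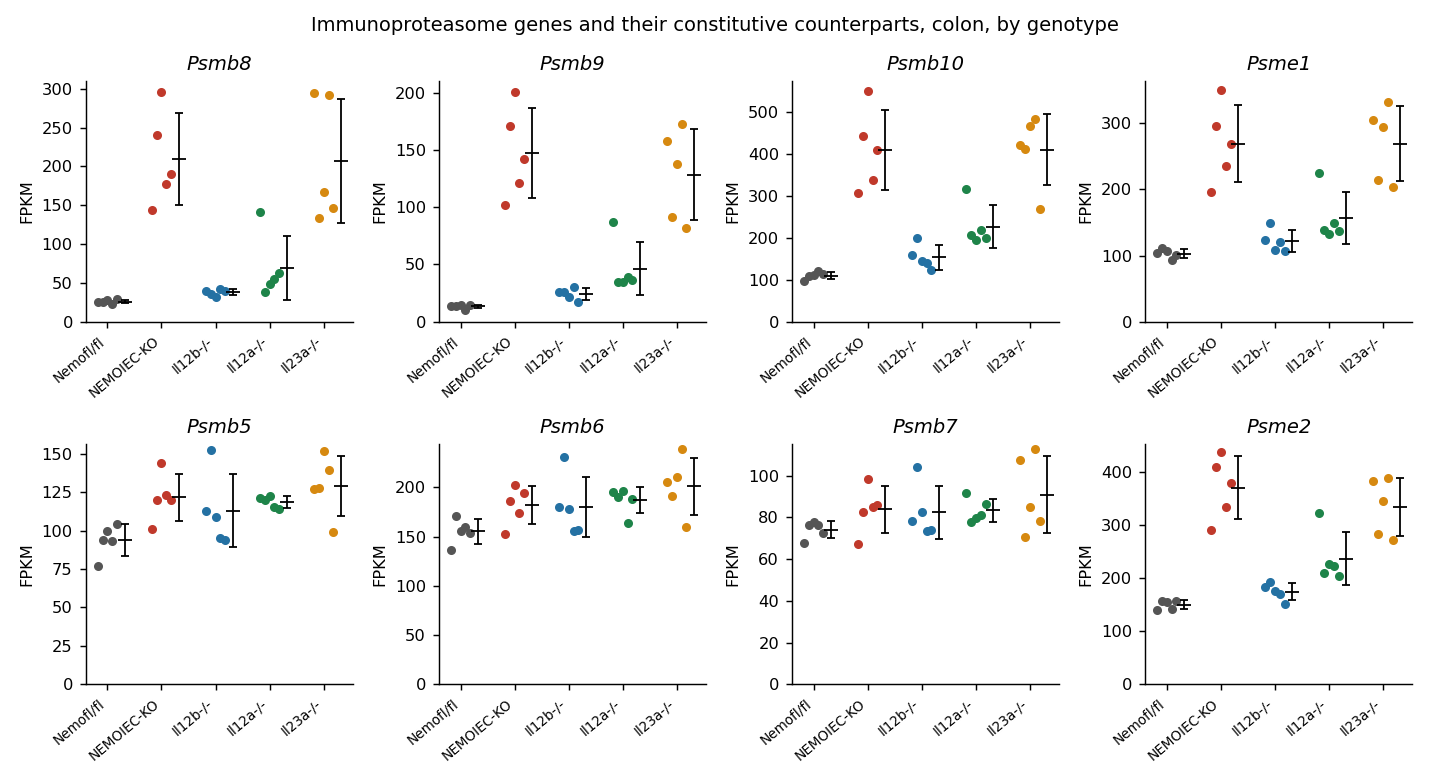
FPKM (vertical axes, from 0) of 8 proteasome genes in each library, by genotype; the 3 right-hand genotypes are NEMOIEC-KO mice with the cytokine label shown, points are mice, and the bar beside them is the mean with its SD (n = 5). Psmb8, Psmb9, Psmb10, Psme1 and Psme2 were high in NEMOIEC-KO and in the Il23a-/- label and lower with the Il12b-/- and Il12a-/- labels, whereas Psmb5, Psmb6 and Psmb7 varied over narrower ranges.

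Over all 48 genes, 25 rose and 1 fell in NEMOIEC-KO (limma, adjusted p below 0.05). Among all 19266 genes tested, 11.9% rose and 20.3% fell. The 25 were the 5 immunoproteasome genes and 20 of the 43 others, and 15 of the 48 had groups that did not overlap, against 8.73% of all genes. Without NEMOIEC-KO replicate 1 this was 38 of the 48 against 12.9% of all genes, the 5 immunoproteasome genes and 33 others. The median log2 fold change was 1.87 for the 5 and 0.27 for the 43, beside -0.080 for all genes. The number among the 43 moved with single mice: it was 7 without NEMOIEC-KO replicate 3 and 13 without Nemofl/fl replicate 4, and 32 when only libraries of 1 code were compared. All 5 immunoproteasome genes passed in each of these fits. After scaling each library by the median of gene ratios, 35 of 48 rose and none fell, while the share of all called genes that were higher went from 36.9% to 51.4%.

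In the 20S core, 5 of 7 alpha genes and 5 of 7 constitutive beta genes rose, with medians of 0.40 and 0.35. Among the alpha genes, Psma1 was at 93.8, 81.3, 90.7, 85.3 and 94.5 FPKM in Nemofl/fl and 103, 121, 141, 129.5 and 134 FPKM in NEMOIEC-KO, without overlap. Its log2 fold change was 0.49 (SE 0.11, limma adjusted p = 0.003). Psma2, Psma4, Psma5 and Psma7 also rose, by 0.35 to 0.48, while Psma3 at 0.26 and Psma6 at 0.11 did not pass. Of the structural beta genes, Psmb3 rose by 0.49 (SE 0.16, limma adjusted p = 0.025), with groups that overlapped and a call lost without Nemofl/fl replicate 1 or NEMOIEC-KO replicate 3. Psmb1, Psmb2 and Psmb4 rose by 0.28 to 0.37.

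None of the 3 constitutive catalytic genes fell in limma, and 1 of them rose. Psmb5 was at 76.9, 94.1, 99.7, 93.5 and 104 FPKM in Nemofl/fl and 101, 119.9, 144, 123 and 120.1 FPKM in NEMOIEC-KO. It rose by 0.37 (SE 0.12, limma adjusted p = 0.023), with NEMOIEC-KO replicate 1 inside the control range. Psmb6 was at 136, 171, 156, 160.1 and 154 FPKM in Nemofl/fl and 153, 186, 202, 174 and 195 FPKM in NEMOIEC-KO, and its difference of 0.22 (95% interval -0.00032 to 0.45) did not pass the threshold. Psmb7 was at 67.8, 76.5, 77.6, 76.3 and 72.3 FPKM in Nemofl/fl and 67.0, 82.6, 98.4, 85.1 and 86.1 FPKM in NEMOIEC-KO, a difference of 0.17 (95% interval -0.075 to 0.41) that did not pass either. NEMOIEC-KO replicate 1 lay within the control range for Psmb6 and below it for Psmb7.

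Fewer genes of the 19S cap passed. None of the 6 ATPase genes had an adjusted p below 0.05 in limma, with 2 higher and 0 lower at an unadjusted p below 0.05, and all 6 differences were positive, from 0.071 for Psmc6 to 0.28 for Psmc3. Of the 11 non-ATPase genes, Psmd2 and Psmd11 rose by 0.37 and 0.36, and Psmd13 rose by 0.40. The other 8 lay between 0.10 for Psmd8 and 0.35 for Psmd3 and did not pass. Whether the core differed from the cap was not tested. Among the other activators, Psme4 rose by 0.33, and Psme3 was at 35.7, 28.3, 32.9, 28.0 and 28.4 FPKM in Nemofl/fl and 32.1, 34.7, 44.4, 37.4 and 36.9 FPKM in NEMOIEC-KO. Those Psme3 ranges overlapped, and the difference of 0.27 (limma adjusted p = 0.086) did not pass, nor did that of the inhibitor Psmf1 at 0.11. Psme3, the third PA28 gene, is not part of the interferon-induced set.

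The assembly chaperones were the one group with changes in both directions. Psmg3, Psmg4, Psmd9 and Psmd10 rose by 0.24 to 0.43, with Psmd9 at the threshold (limma adjusted p = 0.05). Psmg1 at -0.011 and Psmd5 at -0.028 did not pass. Psmg2, the partner of Psmg1 in the PAC1-PAC2 chaperone that starts alpha ring assembly, was at 15.0, 16.0, 16.5, 18.3 and 15.0 FPKM in Nemofl/fl and 12.7, 12.3, 15.1, 14.7 and 13.3 FPKM in NEMOIEC-KO. Of 5 NEMOIEC-KO values 4 lay below the lowest control value, and replicate 3 lay inside the control range. The log2 fold change was -0.24 (SE 0.091, limma adjusted p = 0.045), and the call was lost without Nemofl/fl replicate 2, 3 or 4 or NEMOIEC-KO replicate 1, 2 or 5. Psme2b rose by 1.30 (SE 0.15, limma adjusted p = 4.6e-06), from 5.18 ± 0.547 to 13.6 ± 2.45 FPKM. Its level was 0.0269 to 0.0413 of that of Psme2 in every library, and how reads of these 2 similar genes were assigned is not given, so its change is uncertain. Psmc3ip rose by 0.53 (SE 0.11, limma adjusted p = 0.001), and its exons overlap those of Mlx on the opposite strand.

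**Figure D2:**
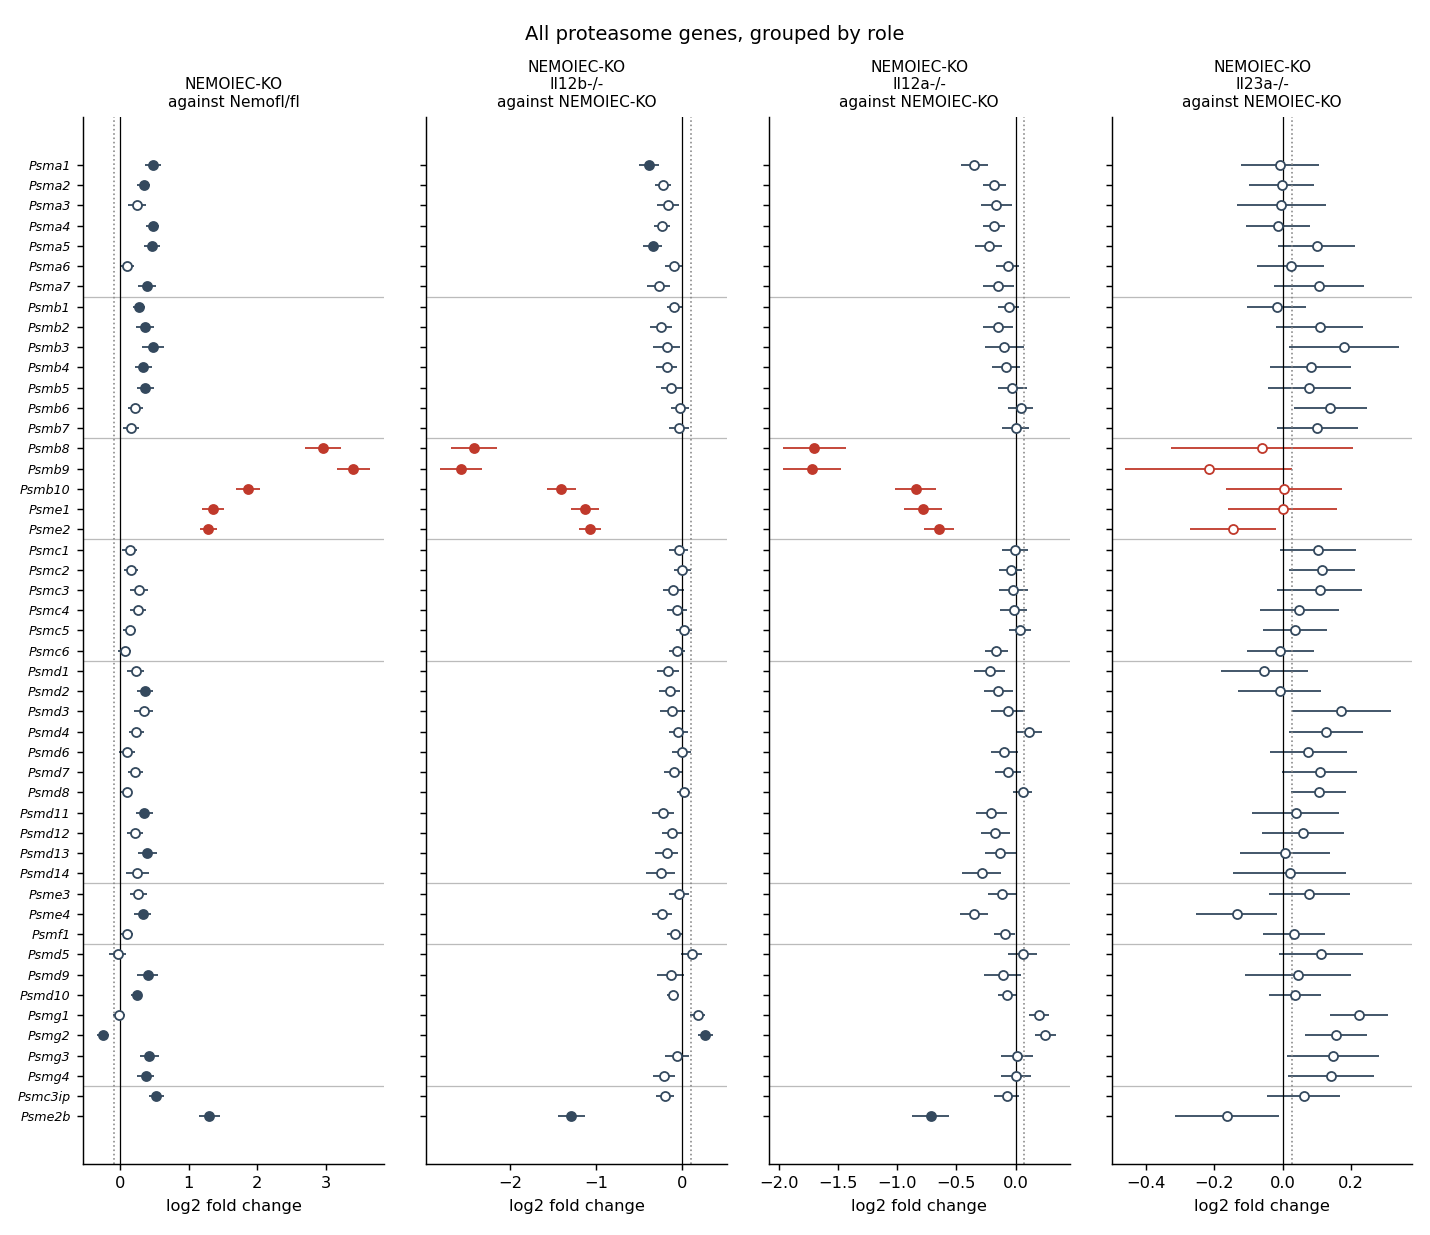
Log2 fold change (horizontal axes, a different scale in each panel) with its SE for all 48 proteasome genes in 4 comparisons, grouped by role between grey lines from the alpha ring at the top; immunoproteasome genes are red, filled points passed limma's threshold, and the dotted line is the median of all genes. The red points lie far right in the first panel, left in the Il12b-/- and Il12a-/- panels and near 0 in the Il23a-/- panel.

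The balance of the 3 inducible to the 3 constitutive catalytic genes was read within each library, where scaling between libraries cancels. The inducible genes made up 32.5, 30.2, 31.3, 31.9 and 31.98% of the summed FPKM of the 6 genes in Nemofl/fl. In NEMOIEC-KO the shares were 63.2, 68.8, 70.2, 62.5 and 64.9%. The inducible set thus went from the minority to the majority of catalytic RNA in every NEMOIEC-KO mouse, from 31.6 ± 0.864% to 65.9 ± 3.41% (SD, n = 5). The Psmb8/Psmb5 ratio went from 0.277 ± 0.0285 to 1.70 ± 0.308, a log2 difference of 2.60. The Psmb9/Psmb6 ratio went from 0.0858 ± 0.0142 to 0.803 ± 0.146, a log2 difference of 3.23. The Psmb10/Psmb7 ratio went from 1.48 ± 0.0830 to 4.85 ± 0.651, a log2 difference of 1.70. In all 3 pairs the groups were fully apart, and the two-sided exact permutation test over all splits of 5 against 5 gave p = 0.0079, the smallest it can give (0.011 after adjustment over 30 ratio tests). Psmb9 stayed below Psmb6 in every library, so that pair moved most and remained at a ratio below 1.

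RNA of cell type markers also differed between NEMOIEC-KO and Nemofl/fl. Of 12 markers of leukocytes, 9 rose in NEMOIEC-KO with a median log2 fold change of 1.08, and their summed level was 77.2 to 134 FPKM in Nemofl/fl and 154 to 411 FPKM in NEMOIEC-KO. All 8 T-cell markers rose, and their sum was 5.58 to 13.3 FPKM in the controls and 23.8 to 67.1 FPKM in NEMOIEC-KO. Neutrophil markers rose in 4 of 5 (median 2.43), plasma cell markers in 4 of 5 (median 1.67) and macrophage and monocyte markers in 4 of 6 (median 0.80). None of 5 B-cell markers passed in limma. Of 8 smooth muscle markers 5 fell, and of 12 colon epithelium markers 6 rose and 2 fell. Of the dendritic, endothelial, fibroblast and enteric neuron and glia markers, at most 1 of each list passed. No summed list was at 0 in any library, and the only defining marker at 0 was Cxcr2, of neutrophils, in an Il12b-/- library. In bulk tissue, a change in the number of cells of a type and a change in RNA per cell cannot be told apart, and the part of cell composition in the proteasome changes was not tested.

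In the libraries labelled Il12b-/-, all 5 immunoproteasome genes were lower than in NEMOIEC-KO, with log2 fold changes from -1.07 to -2.58. Psmb8 was at 39.3, 35.2, 32.2, 42.5 and 39.3 FPKM, a log2 fold change of -2.42 (SE 0.27, limma adjusted p = 4.4e-06). Psmb9 was at 25.9, 25.8, 21.6, 30.4 and 17.0 FPKM and differed by -2.58 (SE 0.24, limma adjusted p = 5.5e-07). Psmb10 was at 160.0, 199.9, 143, 140.5 and 122 FPKM and differed by -1.41 (SE 0.17, limma adjusted p = 1.2e-05). For each of the 3 the highest of these 5 mice lay below the lowest NEMOIEC-KO mouse, as for 4.1% of all genes. Psme1 was at 123, 149, 109, 119.8 and 107 FPKM (-1.13, SE 0.16, limma adjusted p = 6.8e-05). Psme2 was at 184, 192, 176, 170.3 and 152 FPKM (-1.07, SE 0.13, limma adjusted p = 9.8e-06). Both PA28 genes were also without overlap.

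Of the 43 other genes, 3 fell and 1 rose. With the 5, this made 8 of 48 lower, against 5.94% of all genes, and 1 of 48 higher, against 14.0%. The median was -1.41 for the 5 and -0.11 for the 43, beside 0.11 for all genes. The 3 that fell were Psme2b at -1.29, Psma1 at -0.38 and Psma5 at -0.34 on the log2 scale. Psma1 was at 98.6, 102, 102, 91.3 and 87.1 FPKM, below every NEMOIEC-KO mouse, whereas Psma5 at 65.6, 88.4, 69.2, 64.6 and 64.5 FPKM overlapped with the 75.6, 88.6, 106, 84.8 and 90.4 FPKM of NEMOIEC-KO. The gene that rose was Psmg2, at 16.0, 18.1, 16.4, 16.5 and 15.8 FPKM, by 0.28 (SE 0.091, limma adjusted p = 0.035). Its 5 values lay above all 5 of NEMOIEC-KO, and the call was lost without replicate 1, 2 or 5 of NEMOIEC-KO or without replicate 1, 2, 3 or 4 of the libraries labelled Il12b-/-. Without NEMOIEC-KO Il12b-/- replicate 2, 6 of the 43 fell and none rose, without NEMOIEC-KO replicate 1, 5 fell, and without NEMOIEC-KO replicate 3 or NEMOIEC-KO Il12b-/- replicate 5, 1 fell. When only libraries of 1 code were compared, which left 2 NEMOIEC-KO mice, the 5 immunoproteasome genes and 1 other gene were lower. Median-of-ratios scaling gave 13 lower and 0 higher of 48, with 42.8% of all called genes higher in place of 70.2%; quantile normalization gave 54.4%.

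None of the constitutive catalytic genes passed in limma against NEMOIEC-KO. Psmb5 was at 113, 153, 109, 95.1 and 94.2 FPKM and differed from NEMOIEC-KO by -0.12 (95% interval -0.37 to 0.13). Psmb6 was at 179.6, 231, 178, 156 and 157 FPKM and differed by -0.022 (95% interval -0.25 to 0.20). Psmb7 was at 78.1, 104, 82.4, 73.4 and 73.9 FPKM and differed by -0.027 (95% interval -0.27 to 0.22). Replicate 2 was the highest in all 3 and lay above every NEMOIEC-KO mouse for each. Psme3 was at 32.7, 46.6, 39.8, 30.1 and 33.6 FPKM and differed by -0.031 (95% interval -0.28 to 0.22). The signs of these 4 small differences were not stable under other settings. The inducible share of catalytic RNA was 37.8, 34.8, 34.8, 39.7 and 35.5%, below every NEMOIEC-KO mouse and above every Nemofl/fl mouse. The log2 differences of the pair ratios from NEMOIEC-KO were -2.31 for Psmb8/Psmb5, -2.58 for Psmb9/Psmb6 and -1.38 for Psmb10/Psmb7, each with exact permutation p = 0.0079 (adjusted 0.011).

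Against the Nemofl/fl controls, the libraries labelled Il12b-/- gave no called proteasome gene in limma, and 6 of 48 were higher at an unadjusted p below 0.05. In that comparison 0.249% of all genes rose. Psmb9 still stood 1.77-fold higher on that scale (limma adjusted p = 0.14), and Psmb8, Psmb9 and Psmb10 were among the 4 genes without overlap, against 2.89% of all genes. Without replicate 4 of the libraries labelled Il12b-/- 8 genes were without overlap, against 4.14% of all genes. Within libraries, Psmb9/Psmb6 was higher by 0.65 and Psmb10/Psmb7 by 0.32 on the log2 scale (exact permutation p = 0.0079, adjusted 0.011, for each). Psmb8/Psmb5 differed by 0.29 and did not pass (exact permutation p = 0.18, adjusted 0.2). The libraries labelled Il12b-/- and the controls shared no library code, so genotype and code cannot be told apart here.

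In the libraries labelled Il12a-/-, all 5 immunoproteasome genes were also lower than in NEMOIEC-KO, with log2 fold changes from -0.65 to -1.72, and 1 mouse kept high levels. Psmb8 was at 141, 38.7, 49.0, 55.0 and 62.5 FPKM, a log2 fold change of -1.70 (SE 0.27, limma adjusted p = 0.00076). Psmb9 was at 87.2, 34.4, 34.5, 39.2 and 36.8 FPKM and differed by -1.72 (SE 0.24, limma adjusted p = 0.00026). Psmb10 was at 316, 207, 194, 217 and 199 FPKM and differed by -0.85 (SE 0.17, limma adjusted p = 0.0054). Replicate 1 was far above the other 4 in each, and for Psmb10 it overlapped with NEMOIEC-KO, while Psmb8 and Psmb9 stayed apart, as did 1.97% of all genes. Psme1 was at 225, 138, 132, 149.6 and 138 FPKM (-0.79, SE 0.16, limma adjusted p = 0.0057). Psme2 was at 323, 209, 226, 223 and 204 FPKM (-0.65, SE 0.13, limma adjusted p = 0.0045). Both overlapped with NEMOIEC-KO through replicate 1 alone. Without it 8 of the 48 were without overlap, the 5 and 3 others, against 6.75% of all genes, and without NEMOIEC-KO replicate 1 it was 9, the 5 and 4 others, against 3.4%. Markers of other cells also stood apart in replicate 1: smooth muscle markers summed to 2384 FPKM, against 5845 to 11596 FPKM in the other 4 mice, fibroblast markers to 323 against 528 to 867 FPKM, and plasma cell markers to 359 against 134 to 239.7 FPKM. Its leukocyte sum of 229.8 FPKM lay within their range, and the part of these cells in its values was not tested.

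Of the 48 genes 6 fell, the 5 and Psme2b, against 4.0% of all genes, and 0 rose, against 5.61%; 2 were higher at an unadjusted p below 0.05. The median was -0.85 for the 5 and -0.081 for the 43, beside 0.074 for all genes. Psme2b differed by -0.72 (SE 0.15, limma adjusted p = 0.0079). Without replicate 1 of the libraries labelled Il12a-/-, the 5 stayed lower, Psmb10 at -0.97 and Psmb9 at -1.97, and of the other 43, 4 fell and 2 rose. Within 1 library code the direction of all 5 held and none passed, with 2 NEMOIEC-KO mice in the comparison: Psmb8 differed by -1.58 (limma adjusted p = 0.12). With the code as a term in the model 2 of the 5 passed, and with a model of these 2 genotypes alone 3 of the 5 passed. Median-of-ratios scaling gave 8 lower of 48, with 34.2% of all called genes higher in place of 58.3%; quantile normalization gave 46.7%.

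Psmb5, Psmb6 and Psmb7 lay within the NEMOIEC-KO range in all 5 mice. Psmb5 was at 121, 120.2, 122, 115 and 114 FPKM, a difference of -0.029 from NEMOIEC-KO (95% interval -0.28 to 0.22). Psmb6 was at 195, 191, 197, 164 and 188 FPKM, a difference of 0.043 (95% interval -0.18 to 0.27). Psmb7 was at 91.5, 77.7, 79.9, 81.1 and 86.6 FPKM, a difference of -0.00056 (95% interval -0.24 to 0.24). Psme3 was at 34.0, 36.7, 30.1, 36.7 and 33.3 FPKM, a difference of -0.11 (95% interval -0.36 to 0.13). The inducible share of catalytic RNA was 57.2, 41.9, 41.0, 46.4 and 43.4%, between the controls and NEMOIEC-KO in every mouse. The pair ratios differed from NEMOIEC-KO by -1.68 for Psmb8/Psmb5, -1.78 for Psmb9/Psmb6 and -0.85 for Psmb10/Psmb7 on the log2 scale, each with exact permutation p = 0.0079 (adjusted 0.011).

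The libraries labelled Il12a-/- were above the Nemofl/fl controls for part of the genes. They shared no library code with the controls, so genotype and code cannot be told apart in that comparison. Of 48 genes 5 rose, against 0.773% of all genes: Psmb9 by 1.68, Psmb8 by 1.25, Psmb10 by 1.02, Psme2 by 0.64 and Psmc3ip by 0.46 on the log2 scale. Psme1 differed by 0.58 and did not pass (limma adjusted p = 0.067). Without replicate 1, 4 immunoproteasome genes and none of the other 43 passed. The direct comparison with the libraries labelled Il12b-/- gave no call in limma, and 6 of 48 were higher at an unadjusted p below 0.05, the 5 immunoproteasome genes among them. Psmb9 differed by 0.85 (limma adjusted p = 0.19) and Psmb8 by 0.72 (limma adjusted p = 0.51). In the exact permutation tests of the ratios, Psmb10/Psmb7 was higher by 0.53 (p = 0.0079, adjusted 0.011) and Psmb9/Psmb6 by 0.80 (p = 0.024, adjusted 0.029). Psmb8/Psmb5 differed by 0.63 and did not pass (exact permutation p = 0.11, adjusted 0.12).

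**Figure D3:**
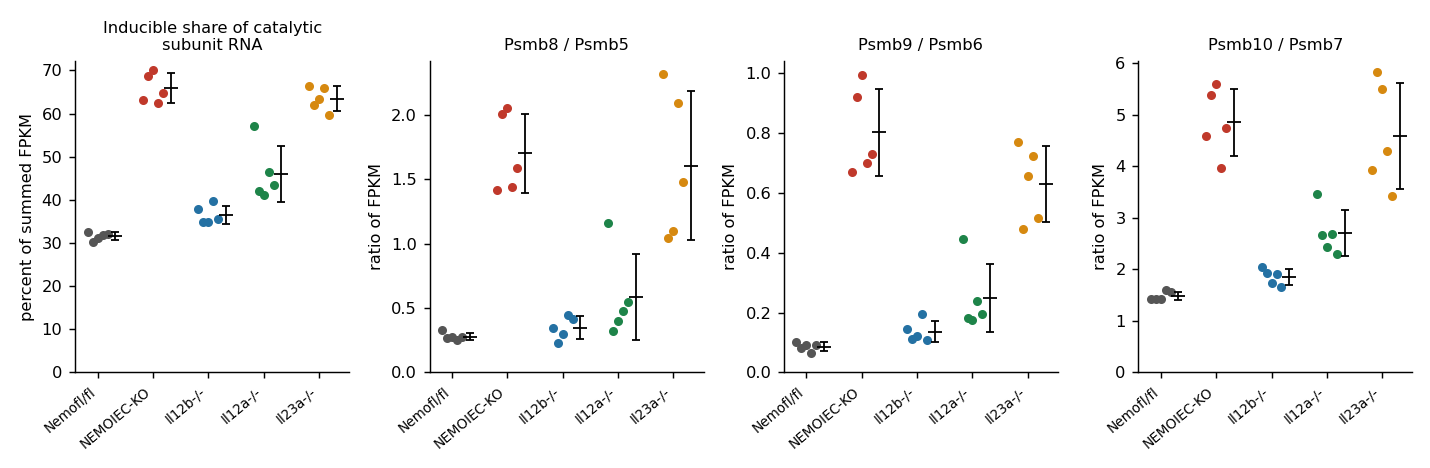
Inducible share of catalytic subunit RNA in percent of summed FPKM (first panel) and the 3 ratios of an inducible to its constitutive gene (other panels), from 0, in each library by genotype; the 3 right-hand genotypes are NEMOIEC-KO mice with the cytokine label shown, points are mice, and the bar is the mean with its SD (n = 5). Shares were 31.6 ± 0.864% in Nemofl/fl, 65.9 ± 3.41% in NEMOIEC-KO, 36.5 ± 2.17% with Il12b-/-, 46.0 ± 6.56% with Il12a-/- and 63.5 ± 2.84% with Il23a-/-.

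In the libraries labelled Il23a-/-, no proteasome gene differed from NEMOIEC-KO in limma, against 0.0467% of all genes higher and 0.0363% lower, and only Psmg1 had an unadjusted p below 0.05. Psmb8 was at 294, 133, 167, 292 and 147 FPKM, a difference of -0.060 (95% interval -0.61 to 0.49). Psmb9 was at 158, 91.8, 138, 173 and 82.4 FPKM, a difference of -0.22 (95% interval -0.72 to 0.29). Psmb10 was at 422, 412, 466, 484 and 268 FPKM, a difference of 0.0038 (95% interval -0.35 to 0.36). The mice split within the group for Psmb8, with replicates 1 and 4 near the top of the NEMOIEC-KO range and replicates 2, 3 and 5 toward or below its bottom. Psme1 was at 305, 214, 294, 332 and 204 FPKM, a difference of 0.00025 (95% interval -0.33 to 0.33). Psme2 was at 383, 284, 345, 388 and 273 FPKM, a difference of -0.15 (95% interval -0.41 to 0.12). These intervals bound the differences and do not show that the genotypes are alike.

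The constitutive catalytic genes did not pass in limma either. Psmb5 was at 127, 127, 152, 139.5 and 99.2 FPKM, Psmb6 at 206, 192, 210.1, 239 and 159.7 FPKM and Psmb7 at 107, 70.8, 84.8, 113 and 78.2 FPKM. Their differences from NEMOIEC-KO were 0.079, 0.14 and 0.10, and that of Psme3, at 50.1, 33.0, 36.5, 42.3 and 35.1 FPKM, was 0.078. The median was 0.075 for the 43 and -0.060 for the 5, beside 0.026 for all genes. The inducible share of catalytic RNA was 66.5, 62.0, 63.3, 65.9 and 59.6%. The pair ratios differed by -0.14 for Psmb8/Psmb5 (exact permutation p = 0.63, adjusted 0.63), -0.36 for Psmb9/Psmb6 (p = 0.1, adjusted 0.12) and -0.10 for Psmb10/Psmb7 (p = 0.56, adjusted 0.57).

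Compared with Nemofl/fl, 32 of 48 genes were higher in the libraries labelled Il23a-/-, against 12.6% of all genes, and 0 were lower in limma, also at an unadjusted p below 0.05. They were the 5, led by Psmb9 at 3.18 and Psmb8 at 2.90, and 27 of the 43. This comparison and that of NEMOIEC-KO share their control mice. The libraries labelled Il23a-/- shared no library code with the controls, so genotype and code cannot be told apart in it. Without replicate 4 of the libraries labelled Il23a-/- 16 of the 43 were higher, and without replicate 1 it was 17. Against the libraries labelled Il12b-/-, 7 genes were higher, with 1.93% of all genes: the 5, among them Psmb8 by 2.36 and Psmb9 by 2.36, and Psme2b and Psma5 by 1.12 and 0.44. Without NEMOIEC-KO Il12b-/- replicate 2 the number of other genes higher was 12 in place of 2. Against the libraries labelled Il12a-/-, 4 were higher, with 0.763% of all genes, namely Psmb8 by 1.64, Psmb9 by 1.51, Psmb10 by 0.85 and Psme1 by 0.79. Psme2 differed by 0.50 and did not pass (limma adjusted p = 0.052). That number was 5 without NEMOIEC-KO Il12a-/- replicate 1 and 2 without replicate 2, 3 or 5 of that genotype or without NEMOIEC-KO Il23a-/- replicate 4.

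None of the 12 leukocyte markers passed in limma against NEMOIEC-KO with the Il12b-/-, Il12a-/- or Il23a-/- label. At an unadjusted p below 0.05 there were 0 higher and 0 lower, 0 higher and 1 lower, and 0 higher and 0 lower. Their summed levels were 106 to 439, 150.4 to 318 and 147 to 270.5 FPKM, beside 154 to 411 FPKM in NEMOIEC-KO. Their median differences were -0.23, -0.22 and -0.14. T-cell and neutrophil markers were lower in part with the Il12b-/- label, 4 of 8 and 4 of 5, and with the Il12a-/- label 0 of 8 and 2 of 5. With the Il12a-/- label the T-cell median was -0.61, and 4 of 8 were lower at an unadjusted limma p below 0.05. Macrophage and monocyte markers fell in 1 of 6 with the Il12b-/- label and 2 of 6 with the Il12a-/- label. No B-cell marker passed, and 1 and 4 of 5 were higher at an unadjusted limma p below 0.05. Epithelial markers fell in 5 of 12 with either label, and 2 rose with the Il12b-/- label. The library with the highest leukocyte sum, NEMOIEC-KO Il12b-/- replicate 2 at 439 FPKM, had Psmb8 at 35.2 FPKM. That with the next highest sum, NEMOIEC-KO replicate 3 at 411 FPKM, had Psmb8 at 296 FPKM. The part of these cell types in the changes was not tested.

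The range over all libraries was wide for the 5 and narrow for most others. That range includes the differences between genotypes, so it does not give the spread among mice of the same genotype. Over the 25 libraries the highest value was 3.13 to 19.6 times the lowest for the 5, and 1.39 to 2.63 times for the other genes without Psme2b. The mean log2 FPKM (with nothing added) of the 5 minus that of the 43 was 0.258 ± 0.0671 for the controls (SD, n = 5). It was 2.16 ± 0.195 for NEMOIEC-KO and 2.01 ± 0.171 for the Il23a-/- label. It was 0.561 ± 0.175 with the Il12b-/- label and 1.11 ± 0.367 with the Il12a-/- label. Within NEMOIEC-KO, replicate 1 was lowest and replicate 3 highest on both scales, so the 43 and the 5 varied together there. NEMOIEC-KO Il12b-/- replicate 2 was close to NEMOIEC-KO replicate 3 for the 43 and stayed with its own genotype for the 5. All 48 genes together took 0.463 ± 0.0222% of the summed FPKM of control libraries and 0.683 ± 0.106% in NEMOIEC-KO.

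**Figure D4:**
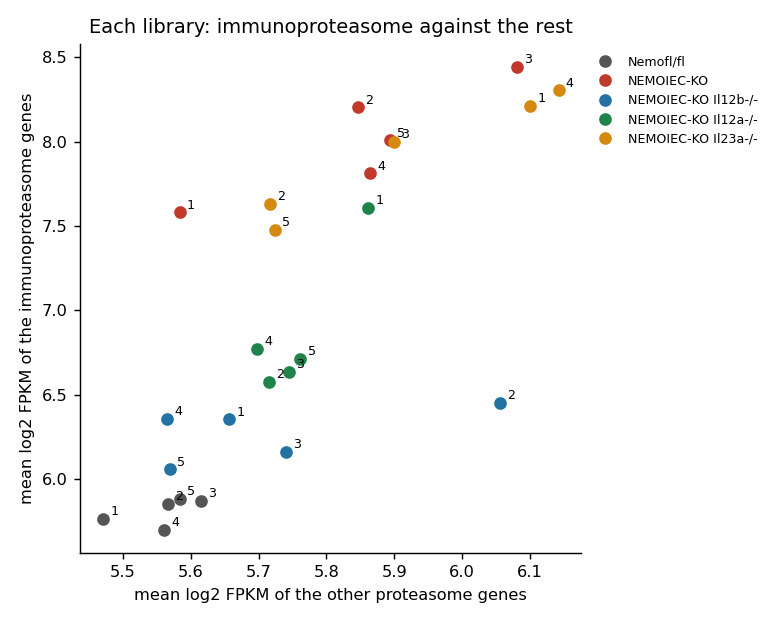
Mean log2 FPKM (with nothing added) of the 5 immunoproteasome genes (vertical) against that of the 43 other proteasome genes (horizontal) in each of the 25 libraries, coloured by genotype and numbered by replicate. NEMOIEC-KO and NEMOIEC-KO Il23a-/- libraries occupy the upper part from 7.48 to 8.44, where NEMOIEC-KO Il12a-/- replicate 1 also lies at 7.61, and NEMOIEC-KO Il12b-/- replicate 2 lies far right at the level of its genotype.

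Genes that work with the proteasome were read from lists without the prefix. In NEMOIEC-KO 11.9% of all genes rose and 20.3% fell, and the median of all genes was -0.080 on the log2 scale. Among 16 measured partners, 2 rose and 1 fell, with a median of 0.027. Pomp, the maturation factor that also serves immunoproteasome assembly, rose by 0.61 (limma adjusted p = 0.0042), Sem1, a small cap subunit, rose by 0.56 (limma adjusted p = 0.0012) and Ecpas, a clamp between core and cap, fell by 0.31 (limma adjusted p = 0.02). None of the 16 passed in limma against NEMOIEC-KO with any of the 3 cytokine labels; at an unadjusted p below 0.05 there were 1 higher and 3 lower with Il12b-/-, 0 higher and 1 lower with Il12a-/-, and 1 higher and 1 lower with Il23a-/-. Of 10 genes of proteasome transcription and its activation, 2 rose and 2 fell in NEMOIEC-KO, with a median of 0.057: Vcp and Nploc4 rose by 0.30 and 0.23, and Nfe2l2 and Ngly1 fell, at -0.38 and -0.29 on the log2 scale. Nfe2l2, which encodes the regulator NRF2, was higher with the Il12b-/- label than in NEMOIEC-KO by 0.50 (limma adjusted p = 0.0069).

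Among 11 genes of ubiquitin and related tags, 4 rose and 2 fell in NEMOIEC-KO, with a median of 0.13. Ubd (FAT10), a tag that sends proteins straight to the proteasome, rose by 5.51, from 2.56 ± 1.22 to 152.9 ± 90.1 FPKM (SD, n = 5). Isg15 and its enzymes Uba7 and Ube2l6 rose by 3.21, 1.37 and 1.85, while the polyubiquitin gene Ubb fell, at -0.21 on the log2 scale. The same 4 genes fell against NEMOIEC-KO with the Il12b-/- and the Il12a-/- label, where 5.94% and 4.0% of all genes fell, with Ubd at -5.63 and -4.35.

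Of 12 class I loading genes, 11 rose in NEMOIEC-KO with a median of 1.35, among them Nlrc5, the class I transactivator, by 4.21, Tap1 by 3.34 and B2m by 2.52 (limma). The exons of Tap1 overlap those of Psmb9 on the opposite strand, and whether strand was used in counting is not given, so reads of that stretch cannot be assigned between them. Of the 12, 11 fell with the Il12b-/- label (median -1.04), 10 with the Il12a-/- label (median -0.83) and none passed in limma with the Il23a-/- label (0 higher and 0 lower at an unadjusted p below 0.05). Of 9 genes of interferon-γ signalling, 5 rose in NEMOIEC-KO with a median of 1.11, with Stat2 at 1.45 and Ifng at 1.87 on the log2 scale. Of the 9, 6 fell with the Il12b-/- label and 6 with the Il12a-/- label. Ifng was listed at 0.0439, 0.0552, 0, 0 and 0 FPKM in the controls and at 0.114, 4.54, 4.12, 0.146 and 2.16 FPKM in NEMOIEC-KO. It was at 0, 0.0605, 0.0428, 0.0848 and 0.0188 FPKM with the Il12b-/- label, 0.202, 0.0191, 0, 0 and 0.0189 FPKM with the Il12a-/- label and 3.50, 0.172, 0.242, 1.62 and 0.119 FPKM with the Il23a-/- label. The highest Il12a-/- value was that of replicate 1, the library of that genotype that also stood highest for all 5 immunoproteasome genes. NEMOIEC-KO replicates 1 and 4 had less Ifng, 0.114 and 0.146 FPKM, with Psmb8 at 144 and 177 FPKM, beside 141 FPKM in that library. The part of Ifng in these levels was not tested.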

How the data were processed

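The deposited values are FPKM per gene and library, made by the authors. TopHat2 2.0.10, Cufflinks 2.1.1, DESeq2 1.10.1 and the build GRCm38 are named in the submitters' processing notes. The role of each tool, the annotation release and the use of strand in counting are not given in the sources used here. Read depth is unknown, so counting error could not be given; the FPKM of a library summed to 653776 to 744280. Identifiers were matched to GENCODE vM21 symbols and positions on GRCm38 (49195 of 49452).

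FPKM values were transformed to log2(FPKM + 0.5), which understates changes of low genes. The filter asked for 0.2 FPKM or more in 5 or more libraries and left 19266 genes. All 25 libraries entered 1 model with a mean per genotype in limma 3.58.1 (R 4.3.3, variance trend, 20 residual degrees of freedom). All tests are two-sided. Benjamini-Hochberg adjustment ran over all genes in each comparison, with a threshold of 0.05. The replicates are separate mice. Ratios of 3 gene pairs were tested by exact permutation in 10 comparisons, adjusted over 30 tests. Values per library were given for the 5 immunoproteasome genes, Psmb5, Psmb6, Psmb7 and Psme3. Other genes were named by the largest changes past the threshold: 4 in each direction in the 4 main comparisons, 2 in each in the other 6, and 3 from each pathway list. Uba7, Psmg1, the Psma5 values and the further subunits with values were named after their values were seen. Some genes of the pathway lists are not reported here. The members and lists were chosen with earlier results of these data known.

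Exons of 15 of the 48 genes overlap exons of another gene on either strand, including Psmb8, Psmb9, Psme1, Psmb5 and Psmb7. Simulated data for NEMOIEC-KO against Nemofl/fl had 200 changed genes among 19266. There limma found 21 of 50 genes changed by 0.5, 40 of 50 by 1, 49 of 50 by 2 and 41 of 50 by -1 on the log2 scale, with 5 false calls. The measured comparison called 2291 genes higher and 3911 lower, so these rates do not carry over to it. The replicate numbers are not stated to pair the mice and were not used as pairs in the main model. Alternatives were 2 pseudocounts, 2 filters, 2 scalings, models of the compared genotypes alone, without trend, with a replicate block or with the library code, and each mouse left out.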

Additional observations from a re-analysis of the deposited data

Results flagged for a closer look

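Values that stood far from the other 4 mice of their genotype were sought in 260 groups of 5 mice, and 27 were found. Chance alone gives about 1 in 20 independent groups. These groups are genes and ratios of the same 25 mice and are not independent, so the number found cannot be set against that rate. The criterion was a gap to the nearest mouse above 0.71 of the whole range of the group.

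NEMOIEC-KO Il12b-/- replicate 2 gave 13 of them, all high and all in genes outside the immunoproteasome. Its FPKM, against the range of the other 4 mice, was Psmb3 244 against 145 to 168, Psmd3 93.3 against 54.3 to 59.3, Psmc1 99.8 against 63.0 to 71.6, Psmc6 46.2 against 39.2 to 40.5, Psmd2 99.7 against 58.5 to 69.0 and Psmd14 39.8 against 30.2 to 32.1. It was Psmc3 147 against 88.7 to 98.3, Psmf1 21.7 against 16.4 to 17.6, Psmb4 214 against 147 to 165, Psmd4 148 against 92.0 to 103, Psma5 88.4 against 64.5 to 69.2, Psmd9 33.9 against 18.5 to 21.8 and Psmd13 118 against 70.9 to 82.0. That mouse was also the highest of its genotype for leukocyte and B-cell markers (439 and 172 FPKM summed, against 106 to 253.5 and 17.5 to 87.8 in the others) and the lowest for smooth muscle markers (1971 against 5393 to 9432 FPKM); their part was not tested.

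NEMOIEC-KO Il12a-/- replicate 1 gave 11. The 5 immunoproteasome genes were all high in it: Psme1 225 against 132 to 149.6, Psme2 323 against 204 to 226, Psmb9 87.2 against 34.4 to 39.2, Psmb8 141 against 38.7 to 62.5 and Psmb10 316 against 194 to 217 FPKM. So were the ratios within the library, Psmb8/Psmb5 1.16 against 0.322 to 0.549 and Psmb9/Psmb6 0.447 against 0.176 to 0.239. Among the other genes its FPKM was Psmd2 79.3 against 65.2 to 68.2, Psmg1 15.3 against 17.6 to 18.5, Psmc3 118 against 103 to 107 and Psma5 93.8 against 70.0 to 73.3; Psmg1 was the low one. That mouse was the lowest of its genotype for markers of smooth muscle (2384 against 5845 to 11596 FPKM summed), fibroblasts (323 against 528 to 867) and enteric neurons and glia (7.33 against 14.4 to 18.9), and the highest for plasma cells (359 against 134 to 239.7); their part was not tested.

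The remaining values were low ones: Psme4 in Nemofl/fl replicate 4, 13.3 FPKM against 14.5 to 15.0 FPKM, Psmb6 in NEMOIEC-KO Il12a-/- replicate 4, 164 FPKM against 188 to 197 FPKM and Psmb9 in Nemofl/fl replicate 4, 10.3 FPKM against 13.7 to 14.3 FPKM.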

How the results depend on the processing

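The 5 immunoproteasome calls in NEMOIEC-KO against Nemofl/fl and in NEMOIEC-KO Il12b-/- against NEMOIEC-KO, were 5 under every pseudocount, filter, scaling and model tried and without any single mouse. The ratio differences kept their direction in these 2 comparisons and in NEMOIEC-KO Il12a-/- against NEMOIEC-KO; within 1 library code they were not tested. For NEMOIEC-KO Il12a-/- against NEMOIEC-KO the 5 lower genes became 3 with only these genotypes in the model, 2 with the library code as a term and 0 within 1 code. The fits that leave out mice or change the scaling in the comparisons other than the 4 main ones were chosen after seeing the data, as were the counts of genes without overlap and the Il23a level without single mice. Depth is unknown and the genotypes are unevenly spread over library codes, so code and genotype can be told apart only in part. No double-mutant library shared a code with the Nemofl/fl controls, so in those comparisons code and genotype cannot be told apart. Fits with the library code were made for the 4 main comparisons only.

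The number of other proteasome genes called moved more. In NEMOIEC-KO against Nemofl/fl the 20 higher became 32 within 1 code and 7 to 23 without single mice, and the 1 lower became 0 with no filter, median-of-ratios scaling, no trend, within 1 code or with the code as a term, and 0 to 1 without single mice. In NEMOIEC-KO Il12b-/- against NEMOIEC-KO the 1 higher became 0 with either scaling and within 1 code, and 0 to 1 without single mice; the 3 lower became 8 with median-of-ratios scaling, 1 with the code, and 1 to 6 without single mice. In NEMOIEC-KO Il12a-/- against NEMOIEC-KO the 1 lower became 2 with genes of at least 1 FPKM, 3 with either scaling, 0 with the code, and 1 to 4 without single mice, where 0 to 2 were higher. Against Nemofl/fl, the 1 higher with Il12a-/- became 2 with quantile normalization and 0 to 1 without single mice, and the 27 with Il23a-/- became 16 to 32. NEMOIEC-KO Il23a-/- against NEMOIEC-KO Il12b-/- gave 5 in place of 2 with median-of-ratios scaling and 1 to 12 without single mice, and against NEMOIEC-KO Il12a-/- it gave 0 to 3 others and 2 to 5 immunoproteasome genes. The cause was not tested.

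Signs turned for differences that no fit called. With the library code, Il12b-/- differed from NEMOIEC-KO by 0.011 for Psmb5, 0.081 for Psmb6, 0.13 for Psmb7 and 0.11 for Psme3, and Psmb6 by 0.048 after quantile normalization; without single mice Psmb6 ran from -0.11 to 0.028, Psmb7 from -0.11 to 0.033 and Psme3 from -0.12 to 0.035. Il12a-/- differed by 0.10 for Psmb5, 0.16 for Psmb7 and 0.027 for Psme3 with the code, by -0.050 for Psmb6 with median-of-ratios scaling and by 0.0073 for Psmb7 after quantile normalization; without single mice Psmb5 ran from -0.092 to 0.034, Psmb6 from -0.018 to 0.089 and Psmb7 from -0.078 to 0.060. Il23a-/- differed by 0.17 for Psmb8, 0.044 for Psmb9 and 0.011 for Psme2 with the code, and by -0.034 and -0.030 for Psmb10 and -0.037 and -0.039 for Psme1 with median-of-ratios and quantile scaling. Without single mice Psmb8 ran from -0.21 to 0.077, Psmb10 from -0.093 to 0.15, Psme1 from -0.11 to 0.10 and Psme3 from -0.011 to 0.14.

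With a replicate block, 19 other proteasome genes were higher in NEMOIEC-KO against Nemofl/fl and 2 were lower in NEMOIEC-KO Il12b-/- against NEMOIEC-KO. Deviations of mice with the same number had a median correlation of 0.0071 over 50 pairs, beside 0.0086 over 200 pairs with different numbers, so the numbers were not taken as pairs.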
